A study of Mus musculus with 8 samples.

Results

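The genes described here are 10 genes of myoblast fusion and of adhesion between muscle cells: the fusogens Mymk and Mymx, and Tmem182, Cdh15, Cdh2, Ncam1, Jam2, Jam3, Kirrel and Cd9. They were chosen by symbol from the 42391 gene entries of the raw count table of all 8 samples, and 10 of 10 were found and passed the filter on low counts in both cell types. RNA with poly(A) tails was sequenced from C2C12 cells, a mouse myoblast line that forms myotubes when serum is lowered, and from primary myoblasts cultured from the hindlimb muscle of mice 5 weeks old. Each cell type gave 2 control samples, transfected with an siRNA that has no target, and 2 samples transfected with a Septin9 siRNA, called Septin9-deficient, with replicates 1 and 2 from independent experiments. C2C12 cells were lysed 60 h after transfection, after 12 h in differentiation medium, and primary myoblasts 48 h after transfection, still in proliferation medium, so that cell type, medium, stage and time cannot be told apart between them. The strain, the sex and the number of the mice were not given in the sources used here, and all 8 samples were transfected with an siRNA. With 1 Septin9 siRNA, the loss of Septin9 and other effects of that siRNA cannot be told apart.

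Skeletal muscle fibers form by fusion of mononucleated myoblasts. Myoblasts first recognise each other through adhesion receptors such as cadherins, immunoglobulin-type receptors and junctional adhesion molecules. The membranes are then joined by 2 muscle-specific proteins, Myomaker (Mymk), a multipass membrane protein that acts early in lipid mixing, and Myomixer (Mymx), a micropeptide that acts in opening the fusion pore. Both genes are known targets of the myogenic regulators Myod1 and Myogenin (Myog), which bind the E-box, CANNTG. The question put to the counts was how high these genes stood in the controls of both cell types and whether each changed after Septin9 siRNA in each replicate pair.

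The targeted transcript was lower in every Septin9-deficient sample. Septin9 stood at 413 and 437 CPM (counts relative to all counts of a sample, scaled by the TMM method) in the C2C12 controls and at 147 and 186 CPM after the siRNA, and at 368 and 480 CPM in the primary myoblast controls and at 204 and 160 CPM after it. The fitted log2 fold changes were -1.36 and -1.21 (adjusted p = 5.11e-09 and 1.34e-04, quasi-likelihood test of edgeR, adjusted over all genes by Benjamini-Hochberg, as in all tests below unless another tool is named). The samples held between 20898611 and 27223414 counts on genes. Of the 5 myoblast markers (Myod1, Myf5, Des, Pax7 and Myog), 5 were over 1 CPM in every sample, so the defining markers of the labelled cell type were present. The 5 endothelial markers summed to at most 0.14 CPM in C2C12 cells and to between 1.68 and 2.54 CPM in primary myoblasts, the 5 macrophage markers to between 1.29 and 2.69 CPM, the 4 Schwann cell markers to between 0.934 and 2.49 CPM and the 3 adipocyte markers to at most 1.10 CPM.

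In C2C12 cells 4 of the 10 genes were upregulated after Septin9 siRNA, namely Mymk, Mymx, Tmem182 and Cdh15, and 0 were downregulated. In primary myoblasts 3 were upregulated, namely Mymk, Mymx and Tmem182, and 0 were downregulated. Over all genes tested, 2.64% were called higher and 4.12% lower in C2C12 cells (417 and 651 of 15814 genes), and 3.95% higher and 1.04% lower in primary myoblasts (676 and 178 of 17117 genes), at an adjusted p under 0.05. The upregulated genes of 1.5-fold or more (DEGs) were Mymk, Mymx and Tmem182 in both cell types, 3 of 10 genes, where 0.828% of all genes were such DEGs in C2C12 cells and 2.87% were in primary myoblasts. Without the replicate block 0 of the 10 genes were called in either cell type by edgeR, and 1 in C2C12 cells and 0 in primary myoblasts had an unadjusted p under 0.05. At an unadjusted p under 0.05, 0 of the 10 genes were lower in either cell type, and DESeq2 with the replicate block called 0 lower as well. The 10 genes had median log2 fold changes of 0.21 (C2C12) and 0.18 (primary myoblasts), while that of all genes lay at -0.00079 and 0.01. Since RNA was measured in bulk, a larger share of cells that express a gene and more of its RNA per cell cannot be told apart.

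**Figure D1:**
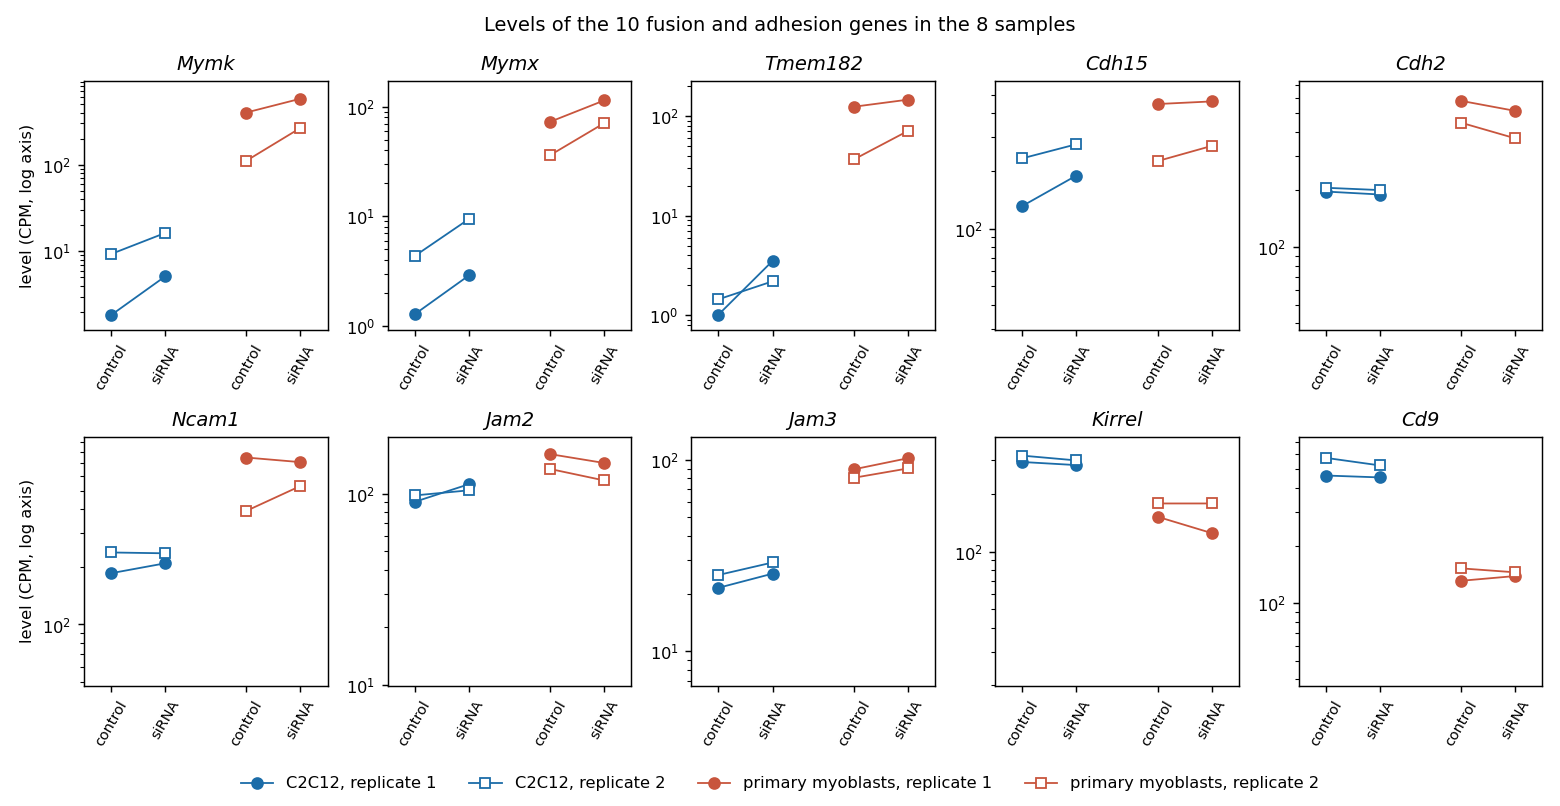
Levels in CPM, on a log axis, of each of the 10 genes in the 8 samples. Lines join the control and the Septin9-deficient sample of one replicate, filled circles are replicate 1 and open squares replicate 2, and the lines of Mymk and Mymx go up in both replicates of both cell types while those of Cdh2 lie slightly lower after the siRNA.

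Mymk (chromosome 2, 27061636 to 27072161, minus strand, GRCm38.p6) is the fusogen Myomaker. In C2C12 cells it stood at 1.84 and 9.31 CPM in control replicates 1 and 2 and at 5.14 and 16.3 CPM in the Septin9-deficient replicates 1 and 2. The groups overlapped, because the replicate 2 control lay above the Septin9-deficient replicate 1, but within each replicate the Septin9-deficient sample was higher. The log2 ratios of the pairs were 1.44 and 0.80, and the fitted value was 1.02 (SE 0.167, 2.03-fold, adjusted p = 7.42e-04, n = 2 pairs, edgeR). In primary myoblasts Mymk stood far higher, at 400 and 111 CPM in the controls and at 578 and 266 CPM after Septin9 siRNA. Again the groups overlapped and both pairs went up, here by 0.53 and 1.26 on the log2 scale. The fitted log2 fold change was 0.90 (SE 0.156, 1.87-fold, adjusted p = 0.00219, edgeR). In C2C12 cells the call was lost in a fit of all 8 samples together (1.00, adjusted p = 0.107). Without replicate 1 the value was 0.81, from 1 pair.

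Mymx (chromosome 17, 45600961 to 45602196, minus strand) encodes Myomixer, the partner of Myomaker. Its levels in C2C12 cells were 1.29 and 4.36 CPM in the controls and 2.90 and 9.45 CPM in Septin9-deficient cells. The log2 ratios of the pairs were close, at 1.12 and 1.10, although the levels of the groups overlapped. The fitted log2 fold change was 1.13 (SE 0.199, 2.20-fold, adjusted p = 0.00131, edgeR). In primary myoblasts Mymx stood at 72.7 and 36.1 CPM in the controls and at 114 and 70.7 CPM after Septin9 siRNA, with log2 pair ratios of 0.65 and 0.97. The groups overlapped by a little, since the upper control lay just above the lower Septin9-deficient sample. The fit gave 0.81 (SE 0.117, 1.76-fold, adjusted p = 5.58e-04, edgeR). Without replicate 2 of the C2C12 cells the log2 fold change was 1.18, from 1 pair. The counts behind the C2C12 values were low, at 28 and 118 counts in the controls and 62 and 225 counts in the Septin9-deficient samples.

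Set per length, as CPM per kb of exon, the ratio of Mymk to Mymx within a sample was 0.971 and 1.45 in the C2C12 controls and 1.21 and 1.17 after Septin9 siRNA. In primary myoblasts the ratio was 3.74 and 2.09 in the controls and 3.45 and 2.56 after it. The ratio was higher in each primary myoblast sample than in any C2C12 sample, whereas control and Septin9-deficient samples overlapped in both cell types. Myog, which acts upstream of both fusogens, stood at 5.23 and 37.7 CPM in the C2C12 controls and at 15.98 and 64.1 CPM after Septin9 siRNA, and at 998 and 407 CPM in the primary myoblast controls and at 1517 and 911 CPM after it. Its fitted log2 fold changes were 1.03 (adjusted p = 2.28e-05) and 0.89 (adjusted p = 0.00266, edgeR). Myod1, the regulator that commits cells to the muscle lineage, rose by 0.54 on the log2 scale in C2C12 cells (adjusted p = 4.57e-05, edgeR), and in primary myoblasts its fitted value was 0.15 (adjusted p = 0.658, edgeR).

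Tmem182 (chromosome 1, 40805573 to 40856887, plus strand) encodes a muscle membrane protein described as an inhibitor of fusion. Its promoter window and that of Cdh15 are shown because these are the upregulated genes among the 10 for which the RefSeq promoter table (GRCm38.p6, 250 bases before to 50 bases after the annotated start) held an entry, as it did for 4 of the 10 genes, the others being Kirrel and Cd9. Capitals mark CANNTG, which reads alike on both strands. The windows lie at chr1:40805351-40805650 on the plus strand for Tmem182 and at chr8:122848124-122848423 on the plus strand for Cdh15.
Tmem182: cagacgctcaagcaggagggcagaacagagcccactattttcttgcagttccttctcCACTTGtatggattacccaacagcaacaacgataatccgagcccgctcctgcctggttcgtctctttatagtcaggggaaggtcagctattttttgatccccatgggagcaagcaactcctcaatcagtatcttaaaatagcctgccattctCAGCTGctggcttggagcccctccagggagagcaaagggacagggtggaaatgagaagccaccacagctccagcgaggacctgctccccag
Cdh15: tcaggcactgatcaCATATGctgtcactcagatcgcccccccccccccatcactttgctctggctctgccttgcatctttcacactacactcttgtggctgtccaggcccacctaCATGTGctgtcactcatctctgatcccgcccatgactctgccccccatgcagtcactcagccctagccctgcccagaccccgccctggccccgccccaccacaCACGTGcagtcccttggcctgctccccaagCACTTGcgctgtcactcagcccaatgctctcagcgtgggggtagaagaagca

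The Tmem182 window held 2 matches, CACTTG starting 193 bases and CAGCTG starting 41 bases before the start annotated for the window. For Tmem182 that start differs from the gene start given above. The Cdh15 window held 4, of which CACGTG and CACTTG started 32 and 2 bases before its annotated start, and none was CAGCTG. Among the genes that were not called, the Cd9 window held 3 matches, one of them CAGCTG, and the Kirrel window held 0. CANNTG was present in 72.3% of the 32851 promoter windows of this length and CAGCTG, which is one of its forms, in 16.3%, so most windows hold such letters, which say nothing of a factor bound there.

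Tmem182 was the lowest of the 10 genes in both C2C12 controls, and in C2C12 cells it stood at 1.01 and 1.44 CPM in the controls and at 3.50 and 2.18 CPM in the Septin9-deficient samples, from 22, 39, 75 and 52 counts. Both Septin9-deficient samples lay above both controls. The pair ratios differed, at 1.71 and 0.57 on the log2 scale, and the fit gave 1.16 (SE 0.30, 2.23-fold, adjusted p = 0.0225, edgeR). In primary myoblasts it stood at 124 and 36.6 CPM in the controls and at 146 and 70.9 CPM after Septin9 siRNA, so the groups overlapped. The log2 pair ratios were 0.24 and 0.95 and the fitted value 0.59 (SE 0.143, 1.51-fold, adjusted p = 0.0208, edgeR). Among fits with both replicates, the calls of Mymk and Mymx in primary myoblasts were lost only without the block. That of Tmem182 was also lost with RLE size factors (adjusted p = 0.102), with library size alone (0.125), with DESeq2 and the block (0.0806) and with all 8 samples in one fit (0.0824). Without replicate 2 its log2 fold change was 0.23, from 1 pair. In C2C12 cells its call was lost in the fit of all 8 samples (1.16, adjusted p = 0.226), and without replicate 1 the value was 0.60, from 1 pair.

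The cadherins join neighbouring cells by calcium-dependent contacts. Cdh15 (chromosome 8, 122848374 to 122867397, plus strand) encodes M-cadherin, the cadherin of muscle precursors. In C2C12 cells it stood at 131 and 233 CPM in the controls and at 189 and 276 CPM in the Septin9-deficient samples, overlapping between groups and higher in both pairs, by 0.53 and 0.24 on the log2 scale. The fitted log2 fold change was 0.38 (SE 0.0717, 1.30-fold, adjusted p = 0.00245, edgeR). This call was lost in the fit of all 8 samples (0.39, adjusted p = 0.151). From 1 pair alone the values were 0.24 without replicate 1 and 0.54 without replicate 2. In primary myoblasts Cdh15 stood at 448 and 225 CPM in the controls and at 462 and 270 CPM after Septin9 siRNA. There the fitted value was 0.16, with a 95% interval from -0.10 to 0.43 (adjusted p = 0.580, edgeR). Cdh2, on chromosome 18, encodes N-cadherin. It stood at 195 and 204 CPM in the C2C12 controls and at 189 and 199 CPM in the Septin9-deficient samples, and the interval of its log2 fold change ran from -0.18 to 0.09. In primary myoblasts its levels were 582 and 447 CPM in the controls and 515 and 370 CPM after Septin9 siRNA. Both pairs were lower there, by -0.17 and -0.27 on the log2 scale, and the interval ran from -0.48 to 0.05 (adjusted p = 0.442, edgeR). Hence the 2 cadherins had values of opposite sign in both cell types, of which only that of Cdh15 in C2C12 cells passed the test. The ratio of Cdh15 to Cdh2 per length was 1.67 and 2.83 in the C2C12 controls and 2.49 and 3.44 after Septin9 siRNA, and 1.91 and 1.25 in the primary myoblast controls and 2.22 and 1.81 after it.

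Ncam1 (chromosome 9, 49502129 to 49799393, minus strand) encodes the neural cell adhesion molecule, an immunoglobulin-type receptor, which myoblasts carry as they differentiate. It stood at 185 and 238 CPM in the C2C12 controls and at 209 and 236 CPM in the Septin9-deficient samples, with a fitted log2 fold change of 0.08 and a 95% interval from -0.07 to 0.22. In primary myoblasts it stood at 746 and 392 CPM in the controls and at 705 and 529 CPM after Septin9 siRNA. The 2 pairs went in opposite directions, by -0.08 and 0.43 on the log2 scale, and the fitted value of 0.19 did not pass the test (interval -0.12 to 0.50, adjusted p = 0.596, edgeR). Without replicate 1 the value was 0.46, which rests on 1 pair of primary myoblasts. Gm11149, a long noncoding RNA, overlaps Ncam1 over 49738 bases and held 13490 counts in all beside 75839 of Ncam1, and since it was not stated whether the counting used strand, the split between the 2 is uncertain.

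Jam2 (chromosome 16, 84774123 to 84826380, plus strand) and Jam3 (chromosome 9, 27097384 to 27155421, minus strand) encode junctional adhesion molecules, which bind each other across cell contacts. Jam2 stood at 90.7 and 98.0 CPM in the C2C12 controls and at 112 and 104 CPM in the Septin9-deficient samples, which were both above the controls. Its fitted log2 fold change was 0.19 (SE 0.0705, adjusted p = 0.120, edgeR), and it passed the threshold only with library size alone (adjusted p = 0.0428). In primary myoblasts the pairs went the other way, from 161 to 145 CPM and from 135 to 117 CPM, with a fitted value of -0.17 (SE 0.11, adjusted p = 0.499, edgeR). Jam3 stood at 21.4 and 25.0 CPM in the C2C12 controls and at 25.4 and 29.1 CPM after Septin9 siRNA, and at 89.2 and 80.6 CPM in the primary myoblast controls and at 102 and 90.2 CPM after it. It was thus higher in 4 of 4 pairs, with close ratios of 0.24, 0.22, 0.19 and 0.16 on the log2 scale. The fitted values of Jam3 were 0.23 (interval 0.05 to 0.40, adjusted p = 0.124) and 0.19 (interval -0.04 to 0.41, adjusted p = 0.411, edgeR), which did not pass the test. Jam2 and Jam3 each overlap a long noncoding RNA of few counts, Gm46557 with 1813 counts beside 22665 of Jam2 and LOC115487155 with 67 beside 10846 of Jam3.

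Kirrel (chromosome 3, 87078593 to 87174777, minus strand) encodes a nephrin-type receptor related to the founder cell receptors of fly muscle. It stood at 294 and 318 CPM in the C2C12 controls and at 283 and 300 CPM in the Septin9-deficient samples, and at 152 and 179 CPM in the primary myoblast controls and at 125 and 179 CPM after Septin9 siRNA. Its log2 fold changes were -0.07 (interval -0.21 to 0.07) and -0.13 (interval -0.38 to 0.12). Cd9 (chromosome 6, 125460266 to 125494760, minus strand) encodes a tetraspanin, a membrane organiser that acts in cell fusion. It stood at 465 and 575 CPM in the C2C12 controls and at 454 and 525 CPM in the Septin9-deficient samples, and at 131 and 152 CPM in the primary myoblast controls and at 139 and 145 CPM after Septin9 siRNA. The log2 fold changes of Cd9 were -0.09 (interval -0.23 to 0.06) and 0.02 (interval -0.21 to 0.25). For both genes the intervals leave out a 1.5-fold change in either direction, which is 0.585 on the log2 scale. The long noncoding RNAs Gm28809 and Gm26728 overlap Cd9, with 588 and 136 counts beside 61258.

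**Figure D2:**
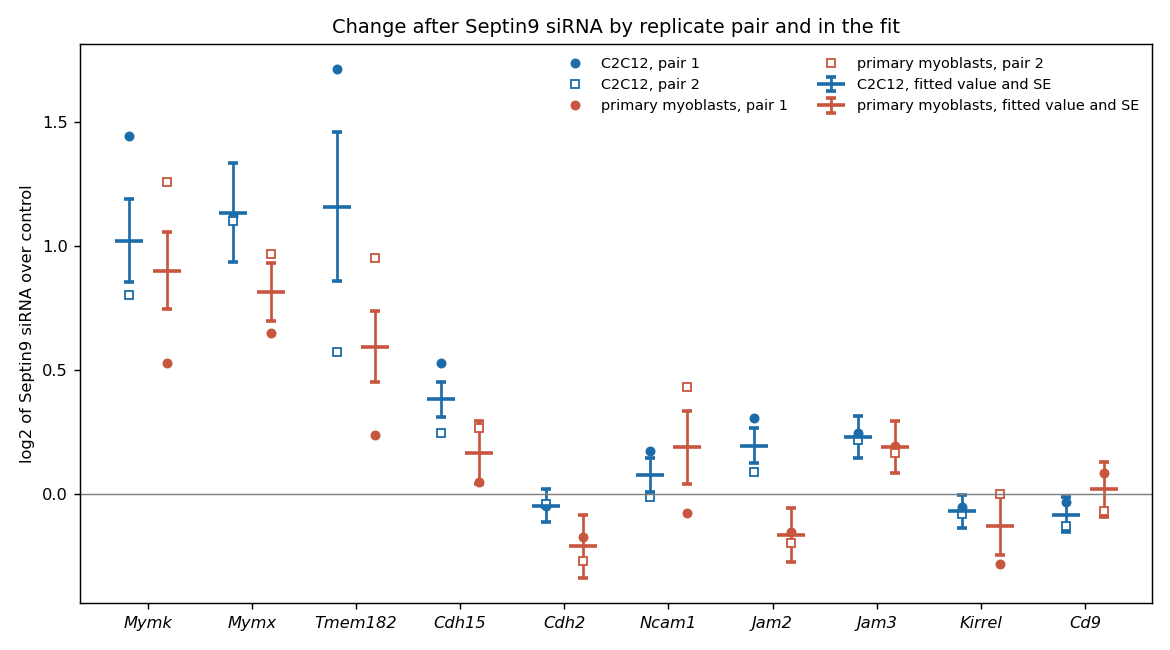
Log2 ratio of Septin9 siRNA over control for each gene and cell type. Circles and squares are the ratios of replicate pairs 1 and 2, and the horizontal bars with whiskers are the fitted values with their SE. Mymk, Mymx and Tmem182 stand above the other genes in both cell types, between 0.59 and 1.16, and Jam2 lies above 0 in C2C12 cells and below 0 in primary myoblasts.

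Among 17918 genes tested for a difference of the siRNA effect between the cell types, 0% were called (0 genes by edgeR at an adjusted p under 0.05, 1469 at an unadjusted p under 0.05, and 21 by DESeq2). Of the 10 genes 0 were called by either tool, and 1 had an unadjusted p under 0.05. That was Jam2, whose effect in primary myoblasts minus that in C2C12 cells was -0.37 on the log2 scale (SE 0.122, adjusted p = 0.452, edgeR). For the fusogens the differences were -0.10 (95% interval -0.73 to 0.52) for Mymk and -0.32 (interval -0.74 to 0.10) for Mymx. For Tmem182 the interval was wide, from -1.47 to 0.32, around -0.58, and that for Cdh15 ran from -0.55 to 0.10 around -0.23. A difference in the response of Mymk or Mymx between the cell types was not detected, and a response 1.5-fold weaker in primary myoblasts lies within both intervals. Without replicate 2 of the primary myoblasts, which left 1 pair there, the difference of Tmem182 was -0.92. Over the 8 alternatives it ranged from -1.21 without C2C12 replicate 2 to -0.0083 without C2C12 replicate 1.

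For the fusogens and Tmem182 the control levels lay further apart between the cell types than the levels of control and Septin9-deficient samples did within them. Between the controls, 7 of the 10 genes were higher and 2 lower in primary myoblasts than in C2C12 cells, while of all 17103 genes tested 18.3% were called higher and 16.2% lower. Mymk was higher by 5.54 on the log2 scale (SE 1.08, 46.5-fold, adjusted p = 0.0206), Mymx by 4.28 (SE 0.699, 19.4-fold, adjusted p = 0.0140) and Tmem182 by 6.06 (SE 0.775, 66.5-fold, adjusted p = 0.00874, edgeR). These sizes depended on single libraries: with 1 control sample left out the log2 difference ranged from 4.28 (without primary myoblast replicate 1) to 7.14 (without C2C12 replicate 2) for Mymk, from 3.64 to 5.42 for Mymx and from 4.86 to 6.68 for Tmem182, with the same samples at the low end and, for Tmem182, primary myoblast replicate 2 left out at the high end. C2C12 cells had been in differentiation medium for 12 h and primary myoblasts in proliferation medium, and Myog too was higher in the primary myoblasts, by 5.06 (adjusted p = 0.0273, edgeR). The adhesion genes differed less. Jam3 was higher by 1.89 (adjusted p = 0.00481), Ncam1 by 1.46 (adjusted p = 0.0374), Cdh2 by 1.39 (adjusted p = 0.0108) and Jam2 by 0.67 (adjusted p = 0.0360, edgeR). With the replicate number as a block, Ncam1 (1.39, adjusted p = 0.0605) and Jam2 (0.67, adjusted p = 0.0800, edgeR) were not called. The labels do not link replicate numbers between the cell types, so that block joins experiments not known to be related. Kirrel and Cd9 were lower in primary myoblasts, by -0.87 (adjusted p = 0.0156) and -1.86 (adjusted p = 0.00565, edgeR) on the log2 scale. Cdh15 did not pass the test (0.92, interval -0.24 to 2.08, adjusted p = 0.171, edgeR), and its replicates of 448 and 225 CPM in primary myoblasts and 131 and 233 CPM in C2C12 cells overlapped. With 2 samples a group these calls rest on few degrees of freedom. With 1 control sample left out its group held 1 sample, so for single genes only the sizes above are given from those fits.

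Per length, the order of the genes could be read more clearly in C2C12 controls than in primary myoblast controls. In C2C12 cells Cd9 led with 254 ± 38.04 CPM per kb (mean ± SD, n = 2, as for the values that follow), ahead of Cdh15 with 56.0 ± 22.1 and Kirrel with 41.0 ± 2.22. Cdh2 with 24.8 ± 0.80 and Ncam1 with 24.4 ± 4.29 came next, then Jam2 with 15.6 ± 0.852 and Jam3 with 7.26 ± 0.791. At the end stood Mymk with 3.69 ± 3.50, Mymx with 2.75 ± 2.12 and Tmem182 with 0.451 ± 0.112 CPM per kb. Among the 9 pairs of neighbours in this order the replicates overlapped in 3, namely Cdh15 with Kirrel, Cdh2 with Ncam1 and Mymk with Mymx. In primary myoblasts Mymk came first with 169 ± 135 CPM per kb, followed by Cdh15 with 103 ± 48.4, Cd9 with 69.3 ± 7.30, Ncam1 with 65.7 ± 28.8, Cdh2 with 63.8 ± 11.8 and Mymx with 52.9 ± 25.2. Tmem182 with 29.6 ± 22.8, Jam3 with 26.5 ± 1.90, Jam2 with 24.5 ± 3.08 and Kirrel with 22.2 ± 2.50 followed. There the replicates of neighbours overlapped in 9 of 9 pairs, so that no step of this order exceeded the spread. Lengths were those of all exons of a gene joined in GENCODE release M21, which can differ from the gene models used for counting.

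**Figure D3:**
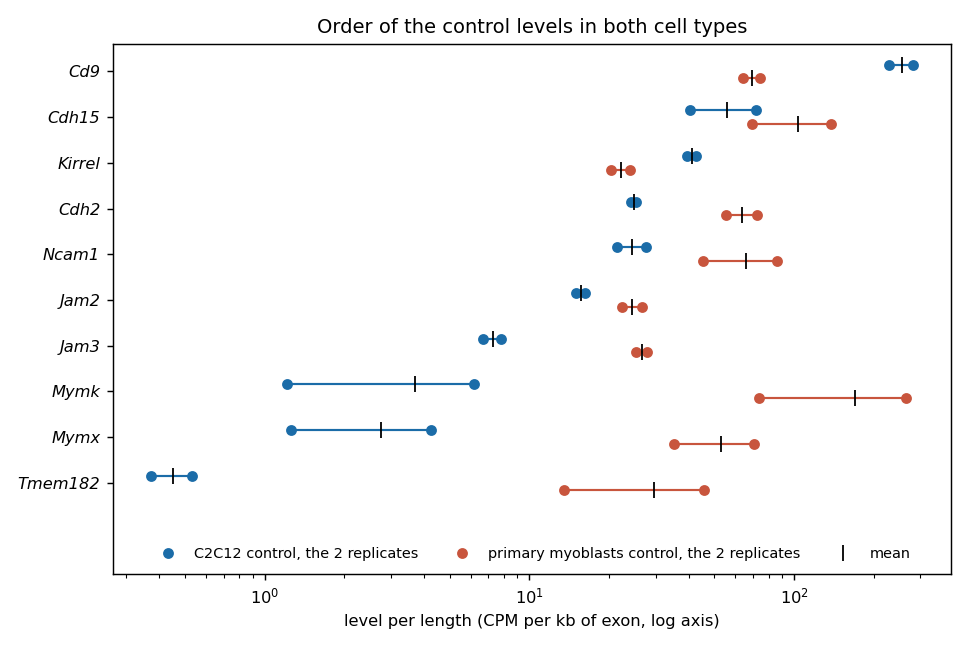
Level of each gene in the control samples in CPM per kb of exon, on a log axis, in the order of the C2C12 means. Points are the 2 replicates, joined by a line, and ticks are the means. Mymk, Mymx and Tmem182 are at the low end in C2C12 cells, with means of 3.69 CPM per kb or less. In primary myoblasts their means lie within the range of the adhesion genes or above it, while the lower Tmem182 replicate, at 13.5 CPM per kb, lies below that range.

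The independent experiments differed from each other in several of the genes that responded to the siRNA. In C2C12 cells replicate 2 was higher than replicate 1, with the siRNA in the fit, by 1.90 on the log2 scale for Mymk (adjusted p = 5.80e-08), 1.70 for Mymx (adjusted p = 2.37e-06) and 0.66 for Cdh15 (adjusted p = 7.53e-07, edgeR), each larger in size than the value after Septin9 siRNA, though the sizes were not tested against each other. Ncam1 and Cd9 were also higher, by 0.24 and 0.23, which makes 5 of 10 genes higher and 0 lower, beside 17.4% and 18.3% of all genes. At an unadjusted p under 0.05, 0 of the 10 were lower, and DESeq2 called 4 higher and 0 lower. Myog was higher in replicate 2 by 2.31 (adjusted p = 2.30e-10, edgeR).

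In C2C12 cells Tmem182 had a fitted value of -0.24 and was not called. Its controls were higher in replicate 2 and its Septin9-deficient samples lower, at 3.50 and 2.18 CPM in replicates 1 and 2. In primary myoblasts the difference of Mymk, Mymx, Cdh15, Cdh2, Ncam1 and Jam3 had the opposite sign, while Tmem182, Jam2, Kirrel and Cd9 had the same sign as in C2C12 cells. Replicate 2 was lower than replicate 1 for 6 of the 10 genes and higher for 1, beside 11.9% and 12.5% of all genes. Mymk was 0.353-fold as high in replicate 2 as in replicate 1, and Tmem182 was lower by -1.42, Cdh15 by -0.90, Mymx by -0.87, Ncam1 by -0.69 and Cdh2 by -0.45 on the log2 scale. Kirrel was higher by 0.35 (adjusted p = 0.0376, edgeR), a call that RLE size factors (0.0743) and DESeq2 (0.165) did not make. The sum of 5 fibroblast markers (Pdgfra, Dcn, Thy1, Lum and Tcf21) was 1.77 and 2.15 CPM in the control and the Septin9-deficient sample of replicate 1 and 54.9 and 63.1 CPM in those of replicate 2, with Tcf21 at 0 in all 8 samples. In C2C12 cells the sum lay between 10.0 and 19.5 CPM. Myoblast markers summed to 3533 and 4774 CPM in replicate 1 and to 2624 and 3850 CPM in replicate 2 of the primary myoblasts. The 3 adipocyte markers summed to at most 0.0438 CPM in replicate 1 and to 0.943 and 1.10 CPM in replicate 2. The part of these markers in the levels of the 10 genes was not tested. Between control and Septin9-deficient samples Thy1 was higher by 0.80 on the log2 scale in primary myoblasts (adjusted p = 0.0431, edgeR), and Dcn and Pdgfra were not called.

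**Figure D4:**
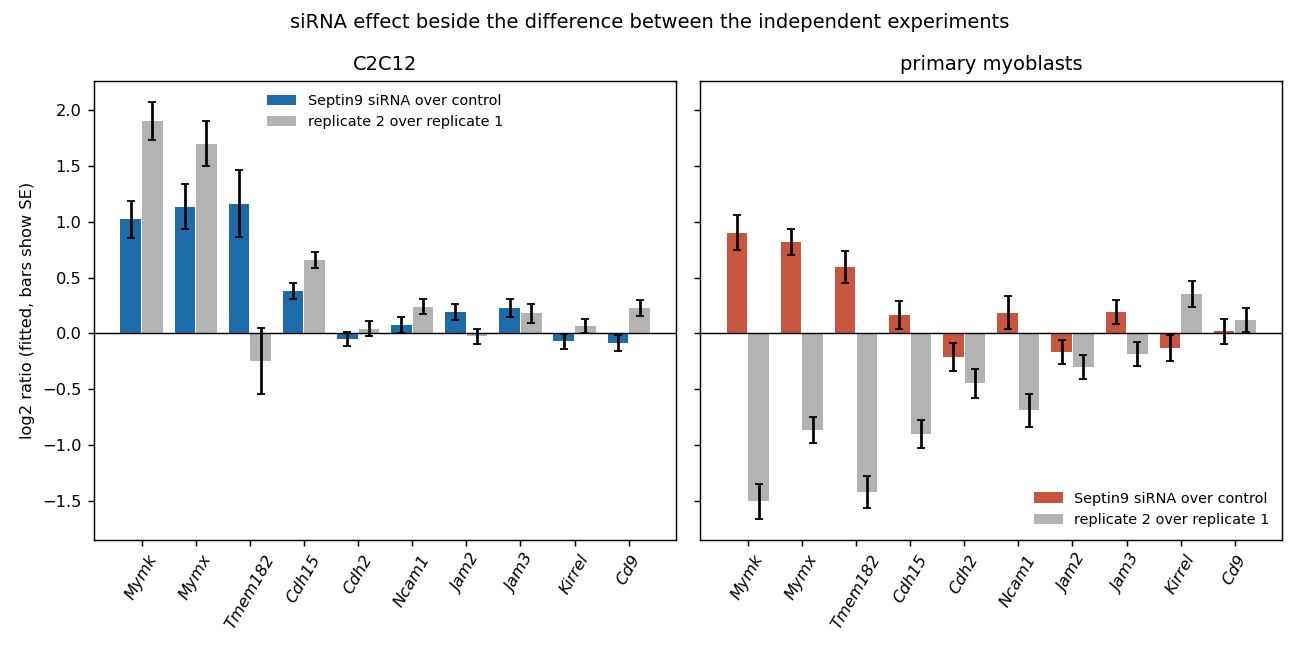
Fitted log2 ratio of Septin9 siRNA over control (coloured bars) beside that of replicate 2 over replicate 1 (grey bars) for each gene, with SE, in both cell types. For Mymk, Mymx and Cdh15 the grey bars are longer than the coloured ones, up in C2C12 cells and down in primary myoblasts.

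Of the myoblast markers, Pax7, Myf5 and Des were also called after Septin9 siRNA in primary myoblasts, and not all in one direction. Pax7, which marks satellite cells, stood at 86.1 and 91.8 CPM in the controls and at 66.8 and 63.6 CPM after Septin9 siRNA, a log2 fold change of -0.44 (adjusted p = 0.0221, edgeR). Myf5, an early myogenic regulator, fell by 0.78 on the log2 scale (adjusted p = 0.00679, edgeR), with unequal log2 pair ratios of -0.33 and -1.30. Des, the muscle intermediate filament desmin, rose by 0.57 on the log2 scale (adjusted p = 0.0409, edgeR). In C2C12 cells Des rose by 0.49 (adjusted p = 2.61e-04, edgeR), whereas Pax7 and Myf5 had log2 fold changes of 0.05 and 0.03 that did not pass the test. The part of these markers in the change of the fusogens was not tested.

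Other genes of adhesion and fusion were called in both directions. Of 29 other adhesion receptors 24 were tested in C2C12 cells, and 3 were higher and 1 lower, where 2.64% and 4.12% of all genes were, with a median log2 fold change of 0.07. Nectin2, an immunoglobulin-type receptor, rose by 0.34 and Itga3, a laminin-binding integrin subunit, by 0.31 on the log2 scale, and Cadm1, another immunoglobulin-type receptor, fell by 0.35. In primary myoblasts 27 were tested and 1 was called, Vcam1, a ligand of integrins, which fell by 0.44, around a median of 0.01, where 3.95% of all genes were higher and 1.04% lower. With lists of this size, 1 called gene is close to these shares. Of 16 genes of the cytoplasmic side of junctions 15 were tested in either cell type. In C2C12 cells 1 was higher and 3 lower, beside the same 2.64% and 4.12%, with a median of -0.11, and in primary myoblasts 1 was lower, beside 1.04%, with a median of -0.05. Ctnnb1, or beta-catenin, the link from cadherins to the cytoskeleton, fell by 0.43 in C2C12 cells (adjusted p = 0.00113) and by 0.49 in primary myoblasts (adjusted p = 0.0422, edgeR), and Vcl, or vinculin, fell by 0.51 in C2C12 cells (adjusted p = 1.44e-04, edgeR).

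Of 42 genes of fusion signalling and membrane remodelling 37 were tested in C2C12 cells, where 5 were lower and 0 higher, beside 4.12% and 2.64% of all genes, with a median log2 fold change of -0.05. The 5 were Elmo1 and Crkl, which act upstream of the GTPase Rac1, Rac1 itself, the Arp2/3 subunit Actr3 and the transcription factor Srf. Their log2 fold changes ran from -1.61 for Elmo1 (SE 0.41) to -0.27 for Rac1. The counts of Elmo1 were low, at 24 and 42 in the controls and 5 and 15 in the Septin9-deficient samples. At an unadjusted p under 0.05, 1 of the 37 was higher and 9 were lower, while 2962 of all 15814 genes passed in either direction. In primary myoblasts 40 were tested, of which 1 was higher and 1 lower, close to the 3.95% and 1.04% of all genes, with a median of -0.03. Cav3, the caveolin of muscle membranes, rose by 0.68 (adjusted p = 0.00238) and Crkl fell by 0.90 on the log2 scale (adjusted p = 1.28e-04, edgeR), beside a fall of 0.87 in C2C12 cells (adjusted p = 6.45e-06, edgeR).

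The profiles nearest to the fusogens were sought among 17918 genes as the Euclidean distance of log2 CPM, centred on the mean of each gene over the 8 samples, which share their libraries and hold 2 cell types. To Mymk the nearest were the long noncoding RNA 5430431A17Rik (distance 0.31), Myog (0.71), Ppfia4 (0.73), Hjv (0.89) and Klhl41 (1.03), with Mymx at rank 65 and Tmem182 at rank 73. To Mymx the nearest were Stac3 (0.65), Art5 (0.88), Tnni2 (1.00), Hsf2bp (1.01) and Cap2 (1.09), with Mymk at rank 121. To Cdh15 they were Ptprd (0.36), Itga7 (0.41), an integrin subunit of muscle, Gm46186 (0.44), LOC108169181 (0.45) and Ptprv (0.45). Mymk stood at rank 17373 from Cdh15, while Cdh15 stood at rank 3113 from Mymk. The values were centred but not scaled, so the distance also reflects how far each gene ranged over the samples.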

How the data were processed

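The 8 RNA-seq samples were grouped by their labels. The authors mapped reads to GRCm38.p6 with STAR 2.7.2, counted them per gene with featureCounts 2.0.1 and deposited raw counts. They also deposited for each cell type a normalized signal, with batch removed by ComBat-Seq and division by DESeq2 size factors. In 100% of its values whole reads were recovered (within 0.05 reads), and DESeq2 on these called 741 genes in C2C12 and 744 in primary myoblasts. From the raw counts 16 broken lines were left out.

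Counts were filtered by filterByExpr, scaled by TMM and tested with edgeR 4.0.16 (R 4.3.3) by the quasi-likelihood test, with Benjamini-Hochberg adjustment over all genes tested at 0.05 and a 1.5-fold limit for DEGs. SE were derived from the F statistic. The replicate number was a block within each cell type, since the paper's methods name independent experiments: deviations of samples with one number correlated across genes at 0.68 (C2C12) and 0.82 (primary myoblasts). The control comparison had no block, and the difference between cell types was an interaction term over all 8 samples. Depth was 20898611 to 27223414 counts per sample, and the precision rests on 2 replicates per group. Pair ratios use log2 CPM with a prior count of 2. The scripts were tested on simulated data.

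The genes described, the lists and the tests were chosen with earlier results of these data known. Named besides the 10 genes are Septin9, Myog, Myod1, the markers, up to 5 called genes with the largest change per list and cell type that changed alike in both pairs, of which some are given here, and the 5 nearest profiles of 3 genes. Alternatives were no filter, scaling by library size alone or by RLE size factors, the block left out or added, DESeq2 1.42.0, all 8 samples in one fit, and replicates left out. With a replicate left out, its groups held 1 sample each and the spread came from the other cell type. From those fits only effect sizes are given for single genes. The counts of called genes given for them in the last section rest on 1 pair or 1 sample and are not a measure of robustness. Leaving out the 2379 entries named as further copies of a gene was chosen after seeing the data.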

Additional observations from a re-analysis of the deposited data

Results flagged for a closer look

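Jam2 was flagged because its pairs moved in opposite directions in the 2 cell types. Both C2C12 pairs were higher after Septin9 siRNA (log2 ratios of 0.31 and 0.09) and both primary myoblast pairs were lower (-0.15 and -0.20). The difference of the effects, primary myoblasts minus C2C12 cells, was -0.37 on the log2 scale and did not pass the test (adjusted p = 0.452, edgeR's quasi-likelihood test). Over 8 alternatives its value ranged from -0.48 to -0.26. No group held enough samples for a test of single outlying samples.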

How the results depend on the processing

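In C2C12 cells the main fit called 1068 genes and 4 of the 10 described here. Without the replicate block both counts were 0 (372 genes and 1 of the 10 at an unadjusted p under 0.05), with DESeq2 and the block 283 genes and 2 of the 10, Mymx and Tmem182 having no adjusted p there, and with all 8 samples in one fit 111 and 1. With 1 replicate left out, 98 to 181 genes and 1 to 2 of the 10 were called. In primary myoblasts 854 genes and 3 of the 10 were called. There RLE size factors gave 295 genes, library size alone 236, DESeq2 with the block 256, no block 0 genes and 0 of the 10 (378 genes and 0 of the 10 at an unadjusted p under 0.05), and leaving out a replicate 1277 to 2020 genes. With library size alone the C2C12 calls were split into 716 higher and 685 lower, against 417 and 651. The difference between cell types called 0 genes, 255 with no filter, 21 with DESeq2 and 51 to 844 with a replicate left out, with 0 to 1 of the 10. The control comparison called 5901 genes, and 512 to 4760 with a sample left out, with 2 to 10 of the 10. With the replicate block it called 4326 genes and lost Ncam1 and Jam2. Replicate 2 against replicate 1 called 5638 genes in C2C12 cells (2570 with DESeq2) and 4187 in primary myoblasts (2005 with DESeq2). The counts with a replicate or a sample left out rest on 1 pair or 1 sample. They cannot show whether a call of the main fit holds, and no conclusion is drawn from them. Values that changed sign were not called in the main fit. With a replicate left out, Ncam1 ranged from -0.016 to 0.18 in C2C12 cells and from -0.084 to 0.46 in primary myoblasts, Kirrel from -0.29 to 0.023 and Cd9 from -0.046 to 0.078 in primary myoblasts, where Cd9 was -0.014 with library size alone. The differences between cell types ranged from -0.59 to 0.32 for Mymk, -0.21 to 0.10 for Kirrel and -0.15 to 0.39 for Ncam1. The cause was not tested. The replicate comparisons with a sample left out were not run. With 2 replicates per group and low counts of Mymx and Tmem182 in C2C12 cells, small changes could not be told from the spread.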
